A study of Mus musculus with 4 samples.

Results

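The matrix metalloproteinases (Mmp), the Adamts proteases, the Timp inhibitors and the lysyl oxidase (Lox) and lysyl hydroxylase (Plod) enzymes of collagen crosslinking were examined in mouse neural progenitor cells (NPCs). They were taken by gene symbol, with earlier results of these data known, which gave 53 of the 21862 genes that were listed once, namely 22 Mmp, 19 Adamts, 4 Timp, 5 Lox and 3 Plod genes. RNA had been sequenced from N31 NPCs (control cells) on soft (0.5 kPa) and stiff (12 kPa) matrices coated with type I collagen, and from N31 NPCs with a retroviral short hairpin RNA against Srf (shSrf cells) on the same matrices. N31 is a single line derived in culture from induced pluripotent stem cells (iPSCs), and in both populations it carries doxycycline (Dox)-dependent reprogramming factors and a blasticidin resistance gene at Oct4. All cells were kept without EGF and bFGF, and a control vector in the control cells is not mentioned in the sources used here. The shSrf cells carried a single hairpin sequence, and by the methods of the study infected cells were selected with puromycin. Effects of infection, of selection or of the hairpin on other genes were not tested. Each of the 4 conditions was 1 library, so there was no replicate check, no test was run and no p-value is given.

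Mmp and Adamts enzymes are secreted or membrane-anchored zinc proteases that cut collagens, proteoglycans and other matrix proteins, and most Mmp enzymes are made as inactive precursors. Timp proteins bind to the active site of these enzymes and inhibit them. Lysyl hydroxylases modify lysines of collagen inside the cell and lysyl oxidases oxidise lysines of collagen and elastin outside it, after which the fibres become crosslinked and stiffer. Srf, a transcription factor that is active on stiff matrices through its cofactor Mkl1, drives genes of the actin cytoskeleton.

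Levels are given as FPKM, a read count scaled to the length of the transcript and to the mapped reads of the library, so that levels can be set side by side across genes. Srf, the target of the hairpin, had an FPKM of 34.4 and 35.6 in control cells and of 16.2 and 17.4 in shSrf cells at 0.5 and 12 kPa. The study judged Srf activity on stiff matrices by targets such as Acta2. In these libraries the log2 ratio of Acta2, 12 to 0.5 kPa, was 0.005 in control and 0.41 in shSrf cells. The depth of the libraries, estimated from the steps between low values, was between 2.41e+07 and 6.23e+07 reads, at which 3 reads on 2000 nucleotides of transcript correspond to an FPKM of 0.0691 and 0.0267. SE below is the counting error of a log2 ratio at that depth and does not cover culture or library preparation. Of 8 neural progenitor markers, Nes, Sox2, Pax6 and Vim were above an FPKM of 2 in all libraries, and Sox1 and Hes5 were listed at 0 in all of them. Relative to control, Nes was lower at both stiffnesses, with log2 ratios of -1.65 and -1.22. Sox2 (2.15 and 1.89), Pax6 (1.31 and 0.97) and Vim (0.49 and 0.69) were higher. Msi1 was also higher (1.59 and 2.12), from an FPKM of 1.29 and 0.86 in control cells. Of 8 mesenchymal markers 7 were above 2 in all libraries, with a summed FPKM of 1768 to 1916 in control and of 1348 to 1410.5 in shSrf cells. They did not differ together. Acta2, which codes for smooth muscle actin, had 321 and 322 in control and 6.74 and 8.96 in shSrf cells. Col1a2 was also lower, as was Thy1 (log2 ratios of -1.38 and -0.90), which had an FPKM of 1.93 in shSrf cells at 12 kPa. Col1a1, Pdgfrb and Twist1 were higher at both stiffnesses. The median log2 ratio of the 7 to control was -0.04 at 0.5 kPa and 0.18 at 12 kPa. Of 5 macrophage markers only Cd68 was above 2, with Ptprc and Cx3cr1 at or near 0, and none of 4 endothelial markers was. The part of these marker differences in the values below was not tested, and in bulk RNA fewer cells of a type and less RNA per cell cannot be told apart.

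Of the 53 genes, 27 exceeded an FPKM of 2 in each of the 4 libraries, as the study had required, and 4 more exceeded it in at least 1 library. The inhibitor Timp2 was the most abundant, with an FPKM of 323 and 333 in control cells and of 327 and 333 in shSrf cells at 0.5 and 12 kPa, higher than 97.2% of the genes above the minimum in the first of these libraries. Timp1, Mmp2, Mmp14, Loxl2, Timp3 and Adamts1 followed in control cells at 0.5 kPa. The summed FPKM of the Timp genes was 1.67 and 1.51 times that of the Mmp genes in control cells and 2.06 and 1.87 times in shSrf cells. All 5 Lox genes and all 3 Plod genes were above the minimum, but only 9 of 22 Mmp and 7 of 19 Adamts genes were.

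**Figure D1:**
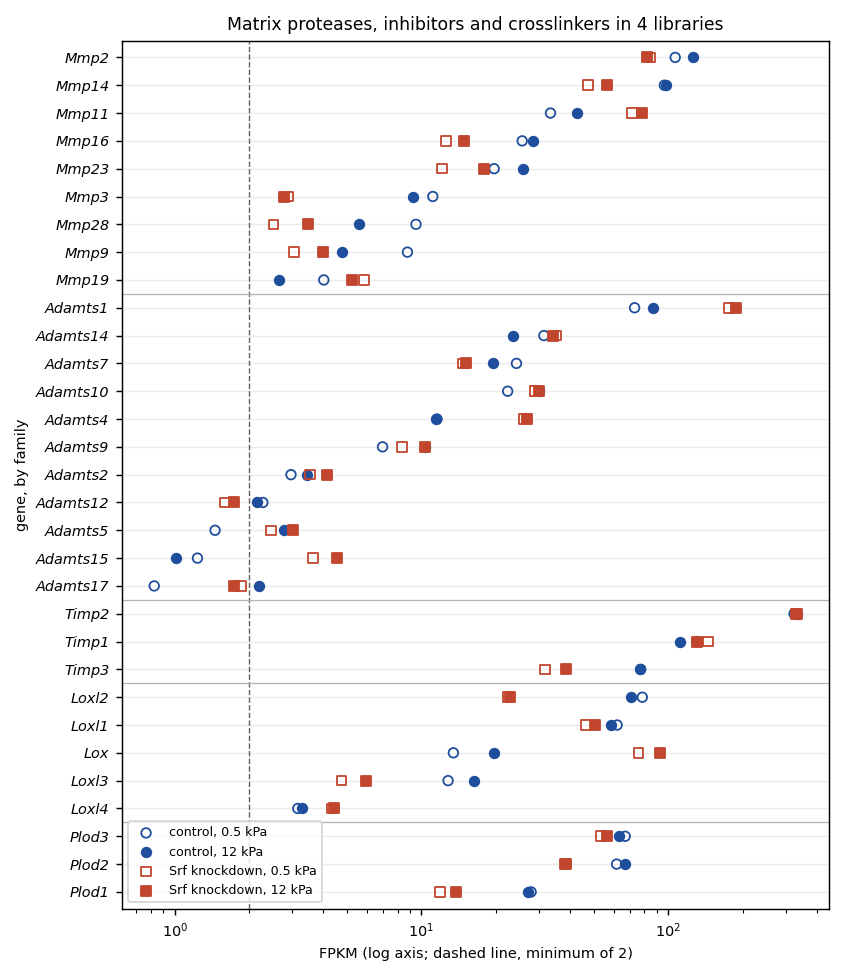
FPKM (log axis) of the 31 genes above an FPKM of 2 in at least 1 library, 1 row per gene and 1 point per library, with open symbols for 0.5 kPa, filled for 12 kPa, circles for control and squares for shSrf cells. Lox lies at 13.5 and 19.6 in control and at 75.6 and 92.6 in shSrf cells, and the points of Timp2 lie on each other.

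Relative to control, the shSrf cells had lower levels of the stromelysin Mmp3 and of the crosslinking enzymes Loxl2 and Loxl3, and higher levels of the crosslinking enzyme Lox and of the proteoglycan-cleaving proteases Adamts1 and Adamts4. Of the 27 genes above the minimum, Mmp3, Loxl2 and Loxl3 were lower by more than 2-fold at both stiffnesses, which is 11.1%, against 1.71% of the 10489 genes above the minimum. Adamts1, Adamts4 and Lox were higher by more than 2-fold at both, also 11.1%, against 1.74% of all genes. Over the 27 genes the median of the log2 ratios to control was -0.34 at 0.5 kPa and -0.22 at 12 kPa, and 0.01 at both stiffnesses over all genes. The median size of the log2 ratio, without its sign, was 0.72 and 0.70 over the 27 genes, and 0.28 and 0.29 over all genes. By family, 7 of 9 Mmp genes and 3 of 3 Plod genes were below control at both stiffnesses. Of 7 Adamts genes, 6 were above control at both, 2 of these by less than 0.01 on the log2 scale at 12 kPa. The Adamts count was smaller when the ratios were centred. Centring on the median put Adamts9 and Adamts10 at -0.007 and -0.009 at 12 kPa. Centring among genes of like GC content put Adamts10 at -0.33 at 12 kPa and Adamts14 at -0.025 at 0.5 kPa. Of all genes above the minimum, 41.3% were below control at both stiffnesses and 43.2% above it, by any amount, and of the 27 genes 55.6% and 44.4%.

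**Figure D2:**
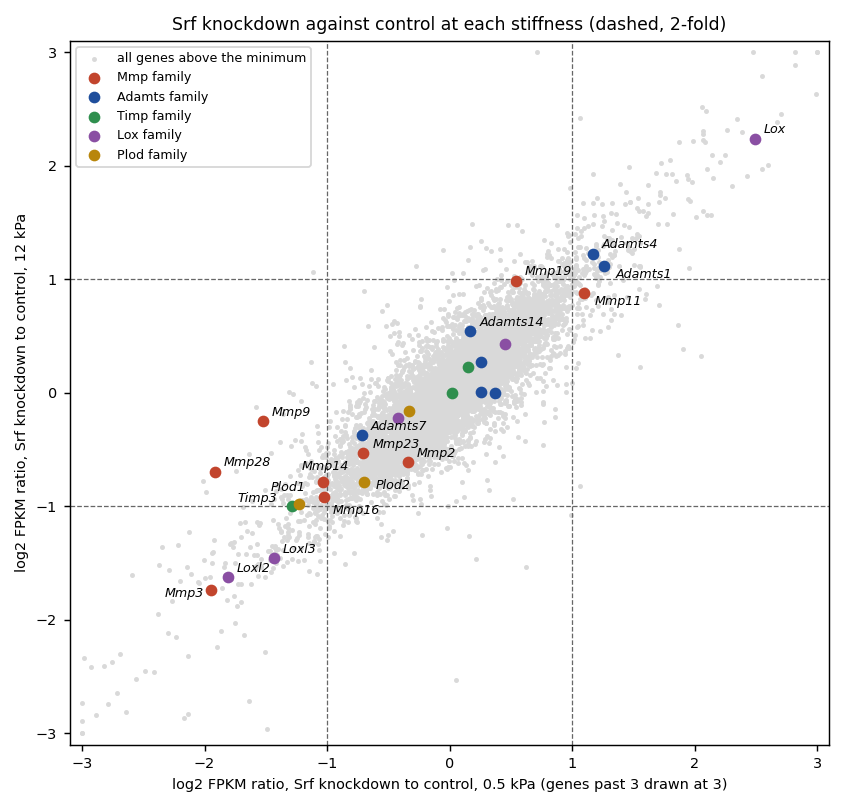
Log2 FPKM ratio to control in shSrf cells at 0.5 kPa (horizontal) and 12 kPa (vertical) for the 27 genes above the minimum, coloured by family, over all 10489 genes in grey, with dashed lines at 2-fold and ratios beyond 3 drawn at 3. Lox (2.49 and 2.24) lies at the upper right and Mmp3, Loxl2 and Loxl3 at the lower left, and Mmp9 (-1.53 and -0.25) and Mmp28 (-1.92 and -0.70) lie off the diagonal.

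Among the secreted Mmp enzymes, the gelatinase Mmp2 was the most abundant. Its FPKM was 107 and 126 in control cells at 0.5 and 12 kPa, and 84.4 and 82.3 in shSrf cells. It was thus lower in both shSrf libraries, by 1.26-fold and 1.53-fold, and its stiff to soft log2 ratio was 0.24 in control and -0.04 in shSrf cells. The stromelysin Mmp11, which unlike most Mmp enzymes is activated by furin inside the cell, went the other way, with an FPKM of 33.3 and 42.5 in control cells and of 71.1 and 78.3 in shSrf cells, or 2.13-fold and 1.84-fold higher. Mmp11 held 10.5% of the summed Mmp FPKM in control and 29.1% in shSrf cells at 0.5 kPa. Mmp19 had a low FPKM of 4.02 and 2.64 in control cells and of 5.85 and 5.23 in shSrf cells, so that both shSrf libraries were above both control libraries.

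The stromelysin Mmp3, which cuts proteoglycans and activates other Mmp precursors, was the lowest of the 31 genes relative to control by the mean of the 2 log2 ratios. Its FPKM was 11.1 and 9.22 in control cells and 2.88 and 2.77 in shSrf cells at 0.5 and 12 kPa. The log2 ratio to control was -1.95 (SE 0.12) at 0.5 kPa and -1.74 (SE 0.12) at 12 kPa, and in shSrf cells it rests on an estimated 276 reads at 12 kPa. Mmp3 lies on chromosome 9 of GRCm38 (mm10) from 7445822 to 7455975, in a cluster of 9 measured Mmp genes that spans 427 kb (from 7272514 to 7699585). Mmp3 was the only gene of the cluster above an FPKM of 2 in any library, and the others, which include the collagenase Mmp13, the stromelysin Mmp10 and the elastase Mmp12, reached at most 0.821.

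The promoters of this cluster are shown since most of them share a motif that no other promoter of the 53 genes held where one was at hand. It was picked after the matches were seen. RefSeq promoter windows (GRCm38.p6, 250 bases before to 50 after a start) were at hand for 34 of the 53 genes. Those of Lox, Loxl2, Loxl3 and Adamts4, which differed by more than 2-fold, and of Mmp2 and Mmp9 were not among them and were not searched. The letters TGANTCA, which are their own reverse complement, include the binding motif of AP-1, in which the middle base is G or C. They occurred in the windows of 7 of the 9 measured genes of the cluster and in none of the other measured genes with a window. Of 32851 windows of all genes, 7.81% held these letters. The match of Mmp20, TGAATCA, has A as its middle base and is thus not the AP-1 motif. The windows of Mmp8 and Mmp27 held no match. The CArG box, the binding motif of Srf, occurred in no window of the 34 genes and in 1.63% of all windows, which says only that these letters are not within the windows searched. The 250 bases before the start of Mmp3 (chr9:7445572-7445821, plus strand) are printed first, and then 41 bases around the motif for each of the 7 genes, in the order of the genes on the chromosome, with TGANTCA in capitals.
Mmp3, 250 bases: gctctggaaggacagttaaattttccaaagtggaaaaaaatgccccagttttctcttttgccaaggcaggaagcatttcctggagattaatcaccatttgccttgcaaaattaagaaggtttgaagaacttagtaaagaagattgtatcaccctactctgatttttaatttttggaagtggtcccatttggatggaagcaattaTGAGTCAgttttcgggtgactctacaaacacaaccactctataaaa
Mmp13, plus strand, chr9:7272462-7272502: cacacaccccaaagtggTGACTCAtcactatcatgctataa
Mmp12, plus strand, chr9:7347313-7347353: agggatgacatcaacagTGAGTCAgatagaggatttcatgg
Mmp1b, minus strand, chr9:7388096-7388136: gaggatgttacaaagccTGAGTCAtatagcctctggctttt
Mmp3, plus strand, chr9:7445759-7445799: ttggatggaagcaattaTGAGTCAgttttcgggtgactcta
Mmp10, plus strand, chr9:7502262-7502302: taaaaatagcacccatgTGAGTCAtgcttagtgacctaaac
Mmp20, plus strand, chr9:7628119-7628159: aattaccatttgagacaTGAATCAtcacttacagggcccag
Mmp7, plus strand, chr9:7692010-7692050: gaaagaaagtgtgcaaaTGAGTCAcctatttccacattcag

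The motif began between 35 bases (Mmp13) and 95 bases (Mmp20) before the start, and 46 bases before it in Mmp3. For Mmp12 this was another start, inside the gene (window from 7347124 to 7347423). The window at the outer start of Mmp12 (7344147 to 7344446) held no match. Mmp7 also had another window (7692091 to 7692390), which held none. Genes with the letters TGANTCA were thus both expressed (Mmp3) and near the limit of detection (Mmp20, whose highest FPKM was 0.0111). Mmp7 was listed at 0 in all 4 libraries, where 3 reads on its transcript correspond to an FPKM of 0.0552 to 0.143. Mmp13 had an FPKM of 0.792 and 0.821 in control cells and of 0.332 and 0.247 in shSrf cells, below control at both stiffnesses as Mmp3 was, while Mmp10 stayed between 0.587 and 0.686 in all libraries.

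Mmp9 and Mmp28 were highest in control cells on the soft matrix. Mmp9, the other gelatinase, had an FPKM of 8.77 and 4.74 in control cells and of 3.05 and 3.99 in shSrf cells at 0.5 and 12 kPa. The log2 ratio of 12 to 0.5 kPa was -0.89 (SE 0.09) in control and 0.39 (SE 0.09) in shSrf cells. Mmp28 (epilysin) had the same order of libraries, with an FPKM of 9.50 and 5.60 in control and of 2.51 and 3.46 in shSrf cells, and log2 ratios of 12 to 0.5 kPa of -0.76 (SE 0.08) and 0.46 (SE 0.09). In the RefSeq annotation Mmp28 (chromosome 11, 83440768 to 83463040) shares 465 bases with 1700020L24Rik, which had an FPKM of 12.4 and 5.02 in control and of 4.17 and 4.61 in shSrf cells. The libraries were made with a stranded kit, but whether the strand was used for these values is not given in the sources used here, so reads of overlapping genes may not be told apart. This also holds for Loxl3 with Htra2, Mmp23 with Mib2, Mmp19 with Tmem198b and Plod3 with Znhit1, which share 72 to 2739 bases.

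Of 7 membrane-anchored Mmp genes, the 3 above the minimum were lower in shSrf cells at both stiffnesses, none of them by more than 2-fold at both. Mmp14 (MT1-MMP), a collagenase of the cell surface that together with Timp2 activates the Mmp2 precursor, had an FPKM of 96.4 and 98.0 in control and of 47.2 and 56.6 in shSrf cells, 2.04-fold and 1.73-fold lower. Mmp16 (MT3-MMP) had 25.6 and 28.3 in control and 12.6 and 14.9 in shSrf cells, and was 2.03-fold and 1.89-fold lower. Mmp23, which is anchored by its amino-terminal part, had 19.7 and 25.8 in control and 12.1 and 17.8 in shSrf cells. Mmp23 was higher on the stiff matrix in both populations, by 0.39 (SE 0.08) and 0.56 (SE 0.07) on the log2 scale. The summed FPKM of all 7 genes of this kind was 143 and 153 in control and 73.3 and 91.1 in shSrf cells. The other 4 (Mmp15, Mmp17, Mmp24 and Mmp25) stayed at or under 1.02 in every library, and none of them was lower than control at both stiffnesses.

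In the Adamts family, 2 of the proteases that cut the proteoglycans aggrecan and versican were higher in shSrf cells by more than 2-fold. Adamts1 had an FPKM of 73.0 and 86.9 in control and of 175 and 189 in shSrf cells at 0.5 and 12 kPa, a log2 ratio to control of 1.26 (SE 0.02) and 1.12 (SE 0.02). Adamts4 had 11.6 and 11.5 in control and 26.0 and 26.8 in shSrf cells, a log2 ratio of 1.17 and 1.22. In both genes the 2 shSrf libraries lay above the 2 control libraries. The log2 ratio of 12 to 0.5 kPa in control and shSrf cells was 0.25 and 0.11 for Adamts1 and -0.01 and 0.05 for Adamts4. Adamts1 held 40.7% of the summed Adamts FPKM in control and 58.0% in shSrf cells at 0.5 kPa. Adamts15, another protease of this kind, was below the minimum in control cells, with an FPKM of 1.24 and 1.01, and had 3.64 and 4.53 in shSrf cells. Its neighbour on chromosome 9, Adamts8, was at or under 0.220 in all libraries.

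The other proteoglycan-cleaving members, Adamts9 and Adamts5, were higher on the stiff matrix in both populations. Adamts9 had an FPKM of 6.96 and 10.3 in control and of 8.33 and 10.3 in shSrf cells, so that both libraries of the stiff matrix were above both of the soft matrix. Adamts5, which lies beside Adamts1 on chromosome 16, had 1.46 and 2.78 in control and 2.46 and 3.01 in shSrf cells, with log2 ratios of 12 to 0.5 kPa of 0.93 (SE 0.10) and 0.29 (SE 0.06). Adamts10, a protein that binds fibrillin, had 22.3 in control cells at 0.5 kPa and between 28.8 and 30.1 in the other 3 libraries. Adamts17, also linked to fibrillin, had 0.826 in the same library and between 1.74 and 2.19 in the others, with a log2 ratio of 12 to 0.5 kPa of 1.40 (SE 0.15) in control cells.

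The procollagen N-proteinases, which remove the amino-terminal propeptide of fibrillar collagens, did not differ as 1 group. Adamts14 had an FPKM of 31.3 and 23.4 in control and of 35.2 and 34.0 in shSrf cells, lowest in control cells on the stiff matrix. Adamts2 had 2.96 and 3.44 in control and 3.54 and 4.14 in shSrf cells, with log2 ratios between 0.22 and 0.27 in all 4 comparisons. Adamts3 reached at most 0.0948. Adamts7, which cuts the cartilage oligomeric matrix protein, was the only Adamts gene above the minimum that was below control at both stiffnesses, with 24.3 and 19.6 in control and 14.7 and 15.1 in shSrf cells. Adamts12, a protease of like function, had 2.28 and 2.16 in control and 1.60 and 1.74 in shSrf cells.

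The inhibitors differed among themselves. Timp3, which binds to the matrix and inhibits Adamts and Adam proteases as well as Mmp enzymes, had an FPKM of 77.3 and 76.9 in control and of 31.6 and 38.6 in shSrf cells at 0.5 and 12 kPa, 2.44-fold and 1.99-fold lower. Its log2 ratio of 12 to 0.5 kPa was -0.01 (SE 0.02) in control and 0.28 (SE 0.02) in shSrf cells. Timp1 had 130.3 and 111 in control and 145 and 130.2 in shSrf cells, lower on the stiff matrix in both populations. For Timp2 each of the 4 log2 ratios was between 0.00 and 0.04. Timp3 thus held 14.6% of the summed Timp FPKM in control and 6.29% in shSrf cells at 0.5 kPa. Timp4 reached at most 0.0596. Timp1 lies inside Syn1 on the opposite strand and Timp3 inside Syn3, and these genes had an FPKM of at most 3.86 and 0.121.

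The most abundant lysyl oxidase was another gene in shSrf than in control cells. Lox, the founding member of the family (mm10 chromosome 18, 52516060 to 52529867), was at an FPKM of 13.5 and 19.6 in control and of 75.6 and 92.6 in shSrf cells at 0.5 and 12 kPa. It was 5.61-fold and 4.72-fold higher, the largest ratio among the 27 genes. At 0.5 kPa its level was higher than 34.4% of the genes above the minimum in control and 84.1% in shSrf cells. Lox was also higher on the stiff matrix in both populations, by 0.54 (SE 0.05) in control and 0.29 (SE 0.02) in shSrf cells on the log2 scale. Loxl2, a paralog that crosslinks basement membrane collagen (chromosome 14, 69608692 to 69695834), had 78.5 and 70.9 in control and 22.4 and 22.9 in shSrf cells, 3.50-fold and 3.09-fold lower. Loxl3 had 12.8 and 16.4 in control and 4.74 and 5.97 in shSrf cells, 2.71-fold and 2.75-fold lower.

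The remaining Lox genes differed less. Loxl1, which acts on elastic fibres, had an FPKM of 62.1 and 58.6 in control and of 46.4 and 50.3 in shSrf cells. Loxl4 had 3.15 and 3.29 in control and 4.32 and 4.42 in shSrf cells. The summed FPKM of the family was 170.0 and 169 in control and 153 and 176 in shSrf cells, and the log2 ratios of these sums to control were -0.15 and 0.06. Loxl2 held 46.2% of this sum and Lox 7.92% in control cells at 0.5 kPa, against 14.6% and 49.2% in shSrf cells. Loxl2 was 5.83 times as abundant as Lox in the former library, and Lox was 3.37 times as abundant as Loxl2 in the latter.

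**Figure D3:**
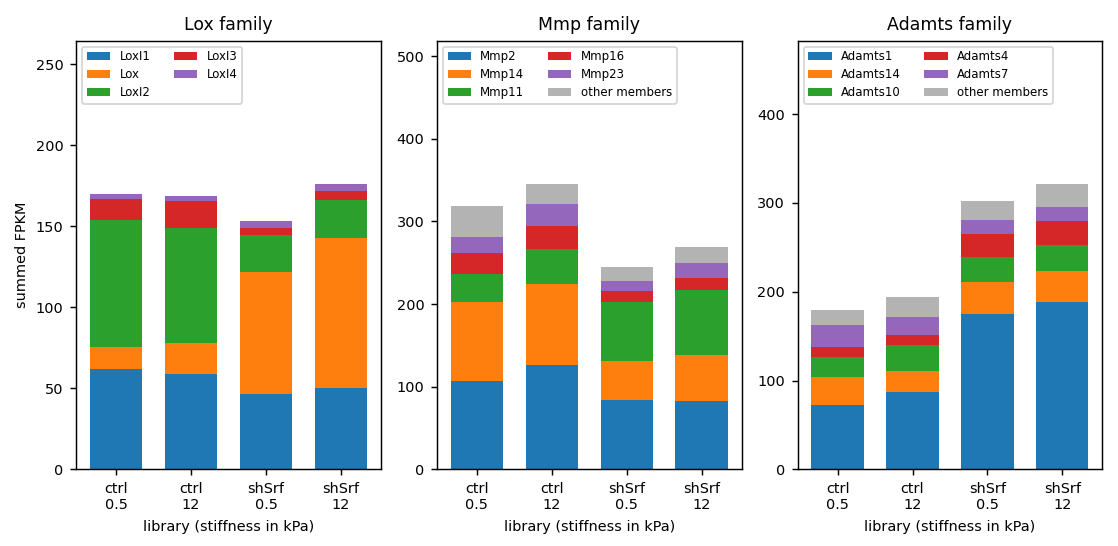
Summed FPKM of the Lox, Mmp and Adamts families in each library (bars, starting at 0), divided by gene, with 5 genes of each family coloured and the others in grey. The Lox bars are of similar height (153 to 176) with Loxl2 as the largest segment in control and Lox in shSrf cells, and the Adamts bars are higher in shSrf cells (303 and 322) than in control cells (179.6 and 195).

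Lysyl hydroxylase genes were lower in shSrf cells. Plod1, which hydroxylates lysines of the collagen helix, had an FPKM of 27.8 and 27.1 in control and of 11.9 and 13.7 in shSrf cells, 2.34-fold and 1.97-fold lower. Plod2, which hydroxylates the telopeptide lysines from which stable crosslinks form, had 61.8 and 66.6 in control and 38.2 and 38.7 in shSrf cells. Plod3, which also adds sugars to hydroxylysine, had 66.9 and 63.4 in control and 53.2 and 56.5 in shSrf cells. For each of the 3 genes both shSrf libraries lay below both control libraries, and the summed FPKM was 156 and 157 in control and 103 and 109 in shSrf cells.

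Whether the stiffness of the matrix changes expression was asked with the ratio of 12 to 0.5 kPa, for which the study used a threshold of 1.1-fold. In control cells 8 of the 27 genes were lower on the stiff matrix by more than this threshold (29.6%, against 16.9% of all genes above the minimum) and 10 were higher (37.0%, against 17.9%). The lower genes were Mmp3, Mmp9, Mmp19, Mmp28, Adamts7, Adamts14, Timp1 and Loxl2, and the higher ones were Mmp2, Mmp11, Mmp16, Mmp23, Adamts1, Adamts2, Adamts9, Adamts10, Lox and Loxl3. In shSrf cells 2 genes were lower (7.41%, against 13.0% of all genes) and 12 were higher (44.4%, against 17.6%). The median log2 ratio of the 27 genes was 0.02 in control and 0.11 in shSrf cells, beside 0.00 and 0.01 over all genes, and their median size without the sign was 0.24 and 0.14, beside 0.09 and 0.09. No Plod gene was past the threshold in control cells.

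Both populations, whose stiffness ratios share no library, gave the same direction for a part of the genes. Higher on the stiff matrix in both were 7 of the 27 genes (25.9%, against 5.10% of all genes), namely Mmp11, Mmp16, Mmp23, Adamts2, Adamts9, Lox and Loxl3. For Mmp11 the ratio in shSrf cells was 0.14 on the log2 scale, at the threshold, and it was within 1.1-fold when the ratios were centred. For Mmp16 the ratio in control cells was 0.15, and 0.11 after centring by GC content. Lower in both were Mmp19 and Timp1 (7.41%, against 3.24%), and Mmp19 had ratios of -0.61 (SE 0.13) and -0.16 (SE 0.07). Mmp9 and Mmp28 were lower on the stiff matrix in control and higher in shSrf cells (7.41%, against 3.52%), and no gene had the opposite pattern, which 2.49% of all genes had.

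**Figure D4:**
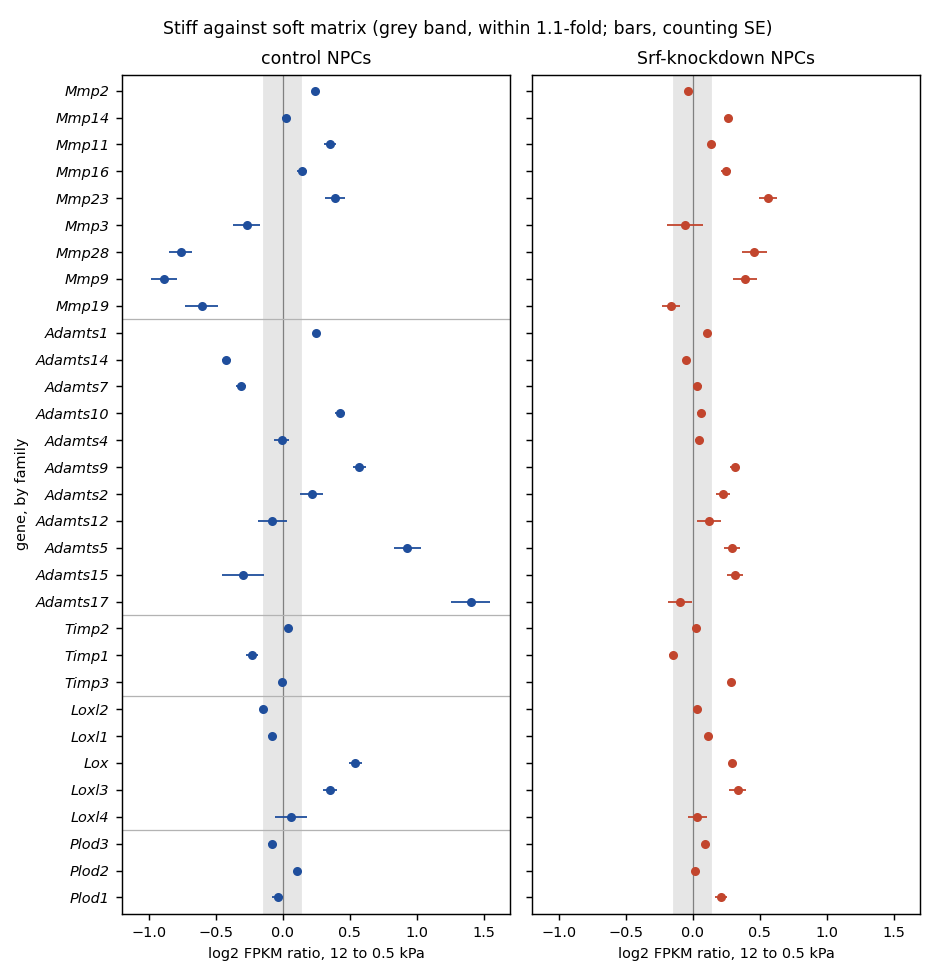
Log2 FPKM ratio of 12 to 0.5 kPa for the 31 genes above an FPKM of 2 in at least 1 library, in control cells (left) and shSrf cells (right), with the counting SE as bars and the range within 1.1-fold in grey. Mmp9 and Mmp28 lie left of the band in control (-0.89 and -0.76) and right of it in shSrf cells (0.39 and 0.46), and Lox and Loxl3 lie right of it in both.

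Members of neighbouring pathways were taken from 8 lists with 74 genes, of which 46 were above the minimum. None of the 46 was lower in shSrf cells by more than 2-fold at both stiffnesses (against 1.71% of all genes). Higher by more than 2-fold at both was 1 gene (2.17%, against 1.74%). This gene was Adam23, an Adam protein without protease activity, with an FPKM of 3.0 and 3.19 in control and of 6.55 and 7.48 in shSrf cells. On the stiff matrix 8 were lower (17.4%, against 16.9% of all genes) and 10 higher (21.7%, against 17.9%) by more than 1.1-fold in control cells. In shSrf cells 0 were lower (against 13.0%) and 13 were higher (28.3%, against 17.6%). In the plasminogen system, a cascade that activates Mmp precursors, 6 of 9 genes were above the minimum. Plau, the urokinase, had 148 and 132 in control and 95.1 and 92.1 in shSrf cells, and Plat, the tissue-type activator, had 53.4 and 44.9 and then 66.1 and 65.8. Both activators were lower on the stiff matrix in control cells, with log2 ratios of -0.17 and -0.25. Serpine2, an inhibitor of both, had 114 and 109.9 in control and 66.1 and 78.4 in shSrf cells, and the plasminogen receptor Plgrkt had 64.3 and 59.4 and then 63.4 and 60.9.

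Of the genes that fold and hydroxylate collagen beside the Plod enzymes, 14 of 15 were above the minimum. Their median log2 ratio to control was -0.27 at 0.5 kPa and -0.32 at 12 kPa, and none was past 2-fold at both. P3h2, a prolyl hydroxylase, had an FPKM of 18.7 and 17.5 in control and of 10.9 and 13.7 in shSrf cells, and P3h4 had 154 and 144 and then 99.9 and 103. Crtap lay between 174 and 194 in all libraries. Serpinh1, the collagen chaperone, had 646 and 657 in control and 743 and 736 in shSrf cells. Bmp1, the protease that matures procollagen and Lox, had 83.2 and 76.5 in control and 62.7 and 71.4 in shSrf cells, and its enhancer Pcolce had 370.5 and 378 and then 494 and 528. Furin, which activates Mmp11 and Mmp14, had 49.2 and 50.5 in control and 37.0 and 39.8 in shSrf cells. The proprotein convertase Pcsk7 had 13.1 and 16.6 in control and 8.81 and 8.95 in shSrf cells. The endocytic receptor Lrp1, which clears Mmp enzymes, and Rhbdf2, a partner of Adam17, were within 1.1-fold of control at 0.5 kPa and above it at 12 kPa, by 0.38 and 0.33 on the log2 scale.

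Membrane sheddases of the Adam family, 6 of 10 of which were above the minimum, release proteins from the cell surface. Adam10 had an FPKM of 87.6 and 97.3 in control and of 58.0 and 57.3 in shSrf cells, and Adam15 had 122 and 132 and then 91.9 and 92.4. Both were thus lower in both shSrf libraries by less than 2-fold. Adam17, the sheddase that Timp3 inhibits, had 30.6 and 21.6 in control and 24.7 and 25.4 in shSrf cells, highest in control cells on the soft matrix.

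The 22 genes that did not exceed an FPKM of 2 in any library were 13 Mmp, 8 Adamts genes and Timp4. Their highest value was 1.02 (Mmp15), and 18 of them stayed under 0.5 in all libraries. Mmp12 had 0.425 and 0.10 in control and 0.274 and 0.40 in shSrf cells, which rest on an estimated 42.2, 8.24, 42.0 and 84.8 reads. Adamts6, the most abundant of the 8 Adamts genes, lay between 0.538 and 0.798. At this depth differences among most of these genes were not detectable.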

How the data were processed

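RNA-seq of 4 libraries was used, 1 for each condition, as the labels group them. The authors trimmed single-end reads with cutadapt 1.9.1, mapped them with TopHat2 2.1.0 and Bowtie2 2.2.8 to mm10 with GENCODE annotation, kept reads with a mapping quality of at least 20 and calculated the deposited FPKM values, named RPKM in the methods, with Cufflinks 2.2.1. Versions are from the submitters' processing notes. Each library listed 21997 rows, of which 135 belonged to 63 repeated symbols and were not used. Ratios are log2 of deposited FPKM without a pseudocount. Genes above an FPKM of 2 in all libraries were compared, with 1.1-fold for stiffness, as in the study, and 2-fold for the knockdown, since the study set none for that ratio. No test was run, since no condition was replicated. The genes and lists were chosen with earlier results of these data known. All members above 2 in any library are named, and of each pathway list the 2 lowest and 2 highest ratios to control are named. Members under that level and the motif were chosen for description after their values were seen.

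Relative depth came from 1101 low genes, with an FPKM below 0.1 in all libraries and reads in at least 3. Of these, 60.5% lay on whole-read steps within 0.02 reads, and 320 of them with 1 transcript over 1000 nucleotides in GENCODE version M1 gave the scale. Estimated reads use the longest transcript there less 200 nucleotides, found for 53 of the 53 members and 9569 of 10489 genes, and counting errors cover reads only. Calculations were checked on simulated data. Coordinates and promoters are from RefSeq (GRCm38). Protein sequences were not used here. Python 3.11.15, numpy 2.4.6, pandas 2.3.3 and matplotlib 3.10.9 were used. Alternatives were other minima, pseudocounts, scalings and thresholds.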

Additional observations from a re-analysis of the deposited data

Results flagged for a closer look

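Among the 31 genes above an FPKM of 2 in at least 1 library, 3 had a log2 ratio of 12 to 0.5 kPa past 1.1-fold in opposite directions in control and shSrf cells. None of these differences was tested, since no condition was replicated. Mmp9 had ratios of -0.89 and 0.39, a difference of -1.28 with a counting SE of 0.13. Mmp28 had -0.76 and 0.46, a difference of -1.22 with a counting SE of 0.13, and 1700020L24Rik, which overlaps it, had -1.31 and 0.14. Adamts15 had -0.30 and 0.32, a difference of -0.61 with a counting SE of 0.17, at an FPKM of 1.24 and 1.01 in control cells, below the minimum. The genes that stayed under 2 were not examined for this.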

How the results depend on the processing

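No paired analysis was possible because there was only 1 library in every condition. Counts depended most on the fold threshold. With 1.2-fold, 6 of the 27 genes were lower (against 6.72% of all genes) and 6 higher (7.27%) on the stiff matrix in control cells, and 0 were lower (3.14%) and 7 higher (5.99%) in shSrf cells. With 1.5-fold, 3 were lower (Mmp9, Mmp19 and Mmp28) and 0 higher in control and 0 were lower and 0 higher in shSrf cells, and with 2-fold all 4 counts were 0. For the knockdown, 9 genes were lower (against 6.17% of all genes) and 4 higher (6.63%) with 1.5-fold, and 2 were lower (0.448%) and 1 (Lox) was higher (0.467%) with 3-fold. A minimum FPKM of 5 was passed by 20 genes. Of these, 4 were lower on the stiff matrix in control (against 15.4% of all genes at that minimum) and 1 in shSrf cells (12.2%). In the knockdown 1 (Loxl2) was lower at both stiffnesses (against 1.24%). With a pseudocount of 1, 1 gene (Timp1) was lower on the stiff matrix in shSrf cells. This held with a minimum (against 11.7% of all genes) and without one (8.23%). With no minimum the median ratios to control over the 53 genes were -0.030 and 0.00051. Centring within 50 bins of GC content gave a median ratio to control of -0.44 at 12 kPa, and the other counts and medians stayed within 1.5 times or 1.1-fold. No ratio of a named gene past its threshold changed sign, and of 680 values 14 changed their side of the threshold. Another 99 of the 680 shifted by more than their counting SE. Of these, 61 came from centring by GC content, which left 41 values within that error, and 35 from the pseudocount of 1. The cause was not tested.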

Other observations

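Matrix enzymes of other classes were also present. Tgm2, a transglutaminase that crosslinks matrix proteins, was the only one of 9 transglutaminase genes above the minimum, with an FPKM of 69.3 and 53.6 in control and of 97.0 and 96.9 in shSrf cells at 0.5 and 12 kPa. On the stiff matrix the log2 ratio to the soft one was -0.37 in control and -0.0014 in shSrf cells. Of 7 cathepsin and cystatin genes 4 were above the minimum. The cysteine protease Ctsb had 134 and 119 in control and 97.3 and 98.7 in shSrf cells. Ctsl had 981 and 964 in control and 761 and 810 in shSrf cells. Ctsz had 129 and 137 and then 142 and 152. The cystatin Cst3, which inhibits such proteases, had 493 and 557 in control and 628 and 714 in shSrf cells. Of 7 Adamts-like genes, which code for related proteins without a protease domain, 5 were above the minimum. Adamtsl5 had 7.32 and 8.12 in control and 4.75 and 5.79 in shSrf cells, and Adamtsl1 had 8.45 and 9.04 and then 11.9 and 11.2. Adamtsl3 had 4.22 and 4.58 in control and 2.38 and 2.24 in shSrf cells, and Adamtsl4 had 4.06 and 3.75 in control and 5.86 and 7.40 in shSrf cells.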
